A study of Mus musculus with 10 samples.

Results

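The 9 mouse genes Ormdl3, Ikzf3, Zpbp2, Gsdma, Smad3, Wdr36, Dennd1b, Adam33 and Npsr1 are orthologs of genes that human studies have tied to the risk of asthma. Their DNA methylation in the lung was read from every 1000-bp window that overlapped the RefSeq span of a gene on GRCm38, extended by 5 kb on each side. Windows were laid every 500 bp, so that neighbours overlap. In all, 217 of the 446336 windows measured were taken, by their position at these genes. The genes themselves were chosen with earlier results of these data known. Smad3 had 68 windows, Dennd1b 30, Ikzf3 27, Gsdma 21, Ormdl3 20, Adam33 20, Npsr1 19, Zpbp2 13 and Wdr36 5, with 6 windows counted for both Ikzf3 and Zpbp2. Every mouse had at least 20 CpG calls in 211 of the 217 windows.

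Lung DNA came from 10 female BALB/c mice, 8 weeks old at the start, and was measured by SureSelect Methyl-seq, where probes pull out chosen regions before bisulfite sequencing. Saline mice (n = 3) received no allergen. OVA-induced mice (n = 3) were sensitized with 50 µg of ovalbumin (OVA) in alum on days 0 and 7, challenged in the nose with 25 µg of OVA for 4 days from day 12, and given vehicle by mouth. DSE-treated mice (n = 4), labelled Herb, received the same OVA and 200 mg/kg of DSE, an ethanol extract of Descurainia sophia seeds, by mouth for 7 days. No saline mice given DSE were among the samples, so that DSE was only measured on top of OVA. Whole lung holds many cell types, and fewer cells of a type and a change of methylation within cells cannot be told apart.

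The total of CpG calls was 306656737 to 410836272 per mouse over all windows, and the median per window of the 9 genes was 324 to 392 in saline mice, 363 to 414 in OVA-induced mice and 406 to 501 with DSE. Windows around the start sites of lung epithelial genes, such as Sftpc and Cdh1, averaged 25.2 ± 1.21% (SD, n = 3) methylated in saline mice. Those of pan-leukocyte genes averaged 53.5 ± 1.14% in saline mice, 42.7 ± 2.19% in OVA-induced mice and 43.3 ± 1.88% with DSE. Of their 23 windows, 14, at Ptprc, Laptm5 and Itgb2, were hypo methylated in OVA vs. saline, where 2.56% of all windows were, and 1, at Coro1a, was hyper methylated. In DSE vs. saline 14 were hypo methylated, at the same 3 genes, where 3.07% of all windows were, and 0 hyper methylated. Windows of eosinophil genes averaged 63.6 ± 2.63% in saline mice, 59.2 ± 0.811% in OVA-induced mice and 56.9 ± 2.84% in DSE-treated mice. Windows of endothelial genes, 7 at Tek and Cldn5 alone, averaged 17.8 ± 1.87%, 23.9 ± 0.877% and 23.4 ± 1.25% in the same order. Cdh5 and Pecam1 had no window. The part of these shifts in the results below was not tested.

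DNA methylation at CpGs is usually low over active, CpG-rich start sites and high in gene bodies, and it differs between cell types. Ormdl3 encodes a membrane protein of the endoplasmic reticulum that restrains serine palmitoyltransferase, the enzyme that starts sphingolipid synthesis, and lies in a cluster with Gsdma, Zpbp2 and Ikzf3. Gsdma belongs to the gasdermins, which form membrane pores, Zpbp2 is a sperm protein gene, and Ikzf3 encodes Aiolos, a lymphocyte transcription factor. Smad3 carries signals of TGF-beta to the nucleus, Adam33 is a membrane-bound metalloproteinase, Dennd1b is an exchange factor for Rab35 that acts in receptor uptake, Npsr1 is the receptor of neuropeptide S, and Wdr36 is a WD-repeat protein of ribosome assembly.

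The sequences that bear on the results are given 5′ to 3′ from RefSeq GRCm38, with each CpG, the unit that was measured, in capitals. The promoters of Ormdl3 and Zpbp2 are shown because their windows held almost no methylation in any group. The others are the 300 bases richest in CpGs within windows that differed between groups, picked after their values were seen.
Ormdl3 promoter, chr11:98587196-98587495, minus strand: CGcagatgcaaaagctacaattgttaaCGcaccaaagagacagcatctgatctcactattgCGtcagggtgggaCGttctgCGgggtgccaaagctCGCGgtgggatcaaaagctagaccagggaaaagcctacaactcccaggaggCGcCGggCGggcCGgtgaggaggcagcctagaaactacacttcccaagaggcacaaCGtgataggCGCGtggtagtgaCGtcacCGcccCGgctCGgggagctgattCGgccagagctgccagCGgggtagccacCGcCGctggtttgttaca
Zpbp2 promoter, chr11:98550847-98551146, plus strand: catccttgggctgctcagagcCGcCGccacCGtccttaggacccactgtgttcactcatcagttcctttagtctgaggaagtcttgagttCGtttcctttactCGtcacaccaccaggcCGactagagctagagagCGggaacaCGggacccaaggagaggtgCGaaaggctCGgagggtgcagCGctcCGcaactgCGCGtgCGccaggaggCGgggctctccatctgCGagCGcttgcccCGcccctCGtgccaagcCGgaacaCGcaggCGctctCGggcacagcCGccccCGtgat
Zpbp2 end of exon 1 and start of intron 1, chr11:98551501-98551800, plus strand: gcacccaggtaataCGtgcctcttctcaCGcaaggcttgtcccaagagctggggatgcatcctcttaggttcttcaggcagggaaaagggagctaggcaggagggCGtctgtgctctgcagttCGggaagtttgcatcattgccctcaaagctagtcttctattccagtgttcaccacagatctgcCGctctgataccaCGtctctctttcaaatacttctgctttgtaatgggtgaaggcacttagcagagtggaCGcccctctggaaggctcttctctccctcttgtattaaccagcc
Smad3 intron 1, chr9:63738127-63738426, minus strand: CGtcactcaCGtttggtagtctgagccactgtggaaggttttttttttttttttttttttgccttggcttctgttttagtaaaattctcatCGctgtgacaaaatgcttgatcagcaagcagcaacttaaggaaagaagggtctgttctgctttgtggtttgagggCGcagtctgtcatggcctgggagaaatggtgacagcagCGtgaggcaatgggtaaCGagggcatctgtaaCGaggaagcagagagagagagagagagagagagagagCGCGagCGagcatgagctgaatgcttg
Npsr1 intron 4, chr9:24286032-24286331, plus strand: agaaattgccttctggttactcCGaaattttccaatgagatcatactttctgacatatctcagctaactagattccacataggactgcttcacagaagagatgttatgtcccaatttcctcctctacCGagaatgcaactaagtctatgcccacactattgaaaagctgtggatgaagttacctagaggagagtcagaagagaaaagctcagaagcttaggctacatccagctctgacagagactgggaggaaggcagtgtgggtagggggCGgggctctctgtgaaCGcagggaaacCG
The 300 bases at the Ormdl3 start held 22 CpGs and those at the Zpbp2 start 26. Among 32851 RefSeq promoters of that length, 23.1% held as many as Ormdl3 or more and 16.9% as many as Zpbp2, with a median of 7. The Smad3 stretch held 10 CpGs, the Zpbp2 intron stretch 7 and the Npsr1 stretch 5. Promoter sequences of 5 of the 9 genes were in the table used.

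In saline lungs the 9 genes covered the whole range of methylation. Of the 211 deeply covered windows, 45 were under 20% methylated, 128 between 20% and 80%, and 38 over 80%. Windows within 1000 bp of a start site averaged 20.6 ± 0.356% (SD, n = 3), exon windows 55.3 ± 0.517% and intron windows 59.6 ± 0.718%. The mean over a gene's windows was highest in Dennd1b at 58.2 ± 1.47%, followed by Smad3 at 57.3 ± 0.194% and Npsr1 at 56.6 ± 1.58%, which overlapped between mice. Lower means were found for Ormdl3 at 49.4 ± 0.821%, Zpbp2 at 40.0 ± 0.847%, Ikzf3 at 38.1 ± 1.54%, Adam33 at 36.0 ± 0.773%, Gsdma at 27.2 ± 1.14% and Wdr36 at 20.1 ± 1.26%. Values of Zpbp2 and Ikzf3, and of Ikzf3 and Adam33, overlapped between mice.

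Few windows differed between groups by 10 percentage points or more. A window was called when a likelihood ratio test on the pooled calls gave an adjusted p under 0.01 and the pooled methylation differed by at least 10 percentage points. In OVA vs. saline, 2 of 216 windows were hyper methylated, where 4.75% of all windows were, and 8 were hypo methylated, where 2.56% of all windows were. In DSE vs. OVA, 5 windows were hyper methylated (0.898% of all windows) and 0 were hypo methylated (0.725% of all windows). In DSE vs. saline, 7 were hyper methylated (4.95% of all windows) and 8 hypo methylated (3.07% of all windows). As shares of the 216 windows these counts were 0.926% and 3.7%, 2.31% and 0%, and 3.24% and 3.7%. Hyper methylated windows were thus rarer than over all windows in both comparisons with saline and more frequent in DSE vs. OVA. By these calls alone, hypo methylated windows were close to the background in both comparisons with saline. At an adjusted p under 0.01 and any size of difference, 28 windows were higher and 33 lower in OVA vs. saline. These were 13% and 15.3%, against 17.4% and 8.18% of all windows. In DSE vs. OVA 18 and 7 were, or 8.33% and 3.24%, against 6.39% and 4.19%. In DSE vs. saline 36 and 33 were, or 16.7% and 15.3%, against 20.9% and 9.03%. The median difference over the windows of the 9 genes was 0.189, -0.355 and -0.0193 percentage points in the 3 comparisons, and over all windows it was 0.732, -0.0354 and 0.721.

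**Figure D1:**
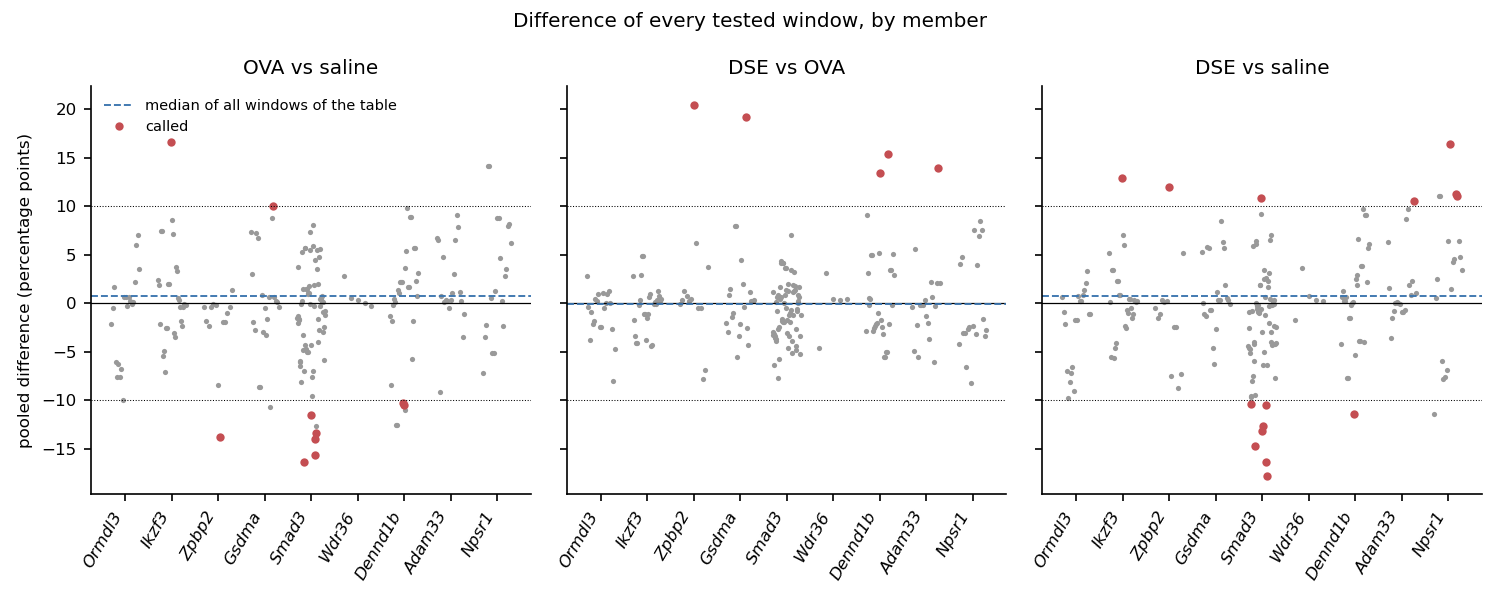
Pooled difference in methylation (percentage points) of every tested window, by gene, in each comparison. Points are windows, red points are called windows, dotted lines mark 10 points either way and the dashed line is the median of all windows; the 8 hypo methylated windows of OVA vs. saline lie in Smad3, Dennd1b and Zpbp2.

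The likelihood ratio test takes no account of the spread between mice. With limma, which does, 0 windows of the 9 genes were hyper and 4 hypo methylated in OVA vs. saline at an adjusted p under 0.05 and any size of difference, where 1.91% and 1.29% of all windows were. At an unadjusted p under 0.05, limma gave 23 and 27 of 216, or 10.6% and 12.5%, against 14.4% and 7.37% of all windows. In DSE vs. OVA limma passed 1 and 0 windows (0.314% and 0.0663% of all windows), and in DSE vs. saline 5 and 9 (4.12% and 2.46% of all windows). Of the windows called above, 4 of the 10 called windows of OVA vs. saline, 1 of the 5 of DSE vs. OVA and 8 of the 15 of DSE vs. saline kept a limma adjusted p under 0.05. For the absent hypo methylated windows in DSE vs. OVA, limma also gave 0 at an adjusted p under 0.05 and 9 of 216 at an unadjusted p under 0.05, and over all windows the latter share was 4.25%. Calls of opposite sign for OVA against saline and for DSE against OVA were found in 0 of 216 windows of the 9 genes and in 0.315% of all windows, so that the count is near the background. Calls of the same sign in both comparisons with saline, which share the saline mice, were found in 6 of 216 windows, or 2.78%, and in 4.56% of all windows. Of 211 windows, 29 had all OVA-induced mice above all saline mice, and 35 had all of them below. These were 13.7% and 16.6%, where this held for 18.0% and 9.03% of all windows. For DSE vs. OVA these counts were 17 and 13, or 8.06% and 6.16% (5.67% and 4.59% of all windows). For DSE vs. saline they were 26 and 30, or 12.3% and 14.2% (16.4% and 7.86% of all windows).

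The calls of the DSE-treated mice were also spread differently over the windows. The share of a mouse's calls that fell in a window differed by more than 1.5 times between DSE-treated and OVA-induced mice in 16.7% of all windows. Among the windows called in DSE vs. OVA, this was true of 56.2% of those hyper methylated and 53.9% of those hypo methylated. In OVA vs. saline it was true of 5.21% of all windows, and in DSE vs. saline of 8.91%. At the 9 genes, Dennd1b had 17 of 30 such windows in DSE vs. OVA, Npsr1 9 of 19 and Zpbp2 5 of 13, but Ormdl3 had none of 20, Gsdma none of 21 and Smad3 2 of 68. Restricted to windows within 1.5 times, a choice made after seeing the data, the called windows were 2 and 7 in OVA vs. saline, 2 and 0 for DSE vs. OVA, and 4 and 8 in DSE vs. saline, hyper and hypo methylated in turn. The corresponding shares of all such windows were 4.79% and 2.51%, 0.472% and 0.402%, and 4.80% and 2.85%.

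Ormdl3 (chr11:98581294-98587245, minus strand, 4 exons) was almost unmethylated at its start and highly methylated over its last 3 exons. The start-site window chr11:98586501-98587500, which holds the promoter sequence above, had 0.655, 0.651 and 0.883% in saline mice. It had 1.24, 0.84 and 0.862% in OVA-induced mice, and 1.12, 0.991, 0.806 and 0.934% in DSE-treated mice. The values lay around 1% throughout and overlapped between groups, with limma adjusted p-values of 0.281, 0.994 and 0.236 for OVA vs. saline, DSE vs. OVA and DSE vs. saline. With 4220 to 6855 calls per mouse, this was among the most deeply covered windows of the 9 genes. Its overlapping neighbours showed small shifts. At 98587001 DSE-treated mice, with 3.14 to 3.69%, were above all others (limma adjusted p = 0.206 in DSE vs. OVA and 0.0738 in DSE vs. saline). At 98586001 OVA-induced mice had 1.2 to 1.39% and saline mice 0.439 to 0.856% (limma adjusted p = 0.0637).

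Of the 7 windows over exons 2 to 4 of Ormdl3, 6 had lower pooled methylation in OVA-induced and 7 in DSE-treated than in saline mice. In 5 of the 7, saline mice did not overlap either OVA-exposed group. The exceptions were chr11:98580501-98581500 in exon 4, at 60.3, 57.1 and 62.8% in saline mice and 60.4, 64.4 and 61.5% in OVA-induced mice, and chr11:98583501-98584500 over exon 2. Among all windows, OVA-induced mice lay wholly below the saline mice in 9.03%, and DSE-treated mice did so in 7.86%. The 5 Ormdl3 windows share bases with their neighbours, so that they are not independent. By limma, 0 of the 7 passed an adjusted p under 0.05 in OVA vs. saline, against 3 for DSE vs. saline. In chr11:98581501-98582500, which lies in exon 4, saline mice had 77.9, 76.8 and 77.2%. OVA-induced mice had 70.7, 67.5 and 70.6%, and DSE-treated mice had 69.7, 69.5, 66.2 and 64.2%. All 7 OVA-exposed mice were below all 3 saline mice. The pooled difference was -7.65 points in OVA vs. saline (limma adjusted p = 0.0669) and -9.75 points in DSE vs. saline (limma adjusted p = 0.0214), under the 10 points needed for a call. The windows starting at 98581001 and 98582501 differed likewise, by -7 points (limma adjusted p = 0.0386) and -7.18 points (limma adjusted p = 0.0406) in DSE vs. saline. This stretch was singled out after its values were seen, and its windows overlap. Those starting at 98580501 and 98581001 also overlap the gene Gm31460. Upstream of the Ormdl3 start, the overlapping windows starting at 98588501 and 98589001 went the other way. OVA-induced mice were above all saline mice there, by 6 and 6.99 points (limma adjusted p = 0.192 and 0.261). At 98589001 DSE-treated mice were below all OVA-induced mice, by -8.07 points (limma adjusted p = 0.44). These windows, too, were singled out after their values were seen.

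No window of Ormdl3 was called. The mean over its windows was 49.4 ± 0.821% in saline mice (SD, n = 3), 48.1 ± 0.374% in OVA-induced mice (n = 3) and 46.9 ± 1.12% in DSE-treated mice (n = 4). DSE vs. saline differed by -2.55 ± 0.734 points (SE; exact two-sided permutation p = 0.0571, and 3 mice against 4 allow none smaller). When the calls of all windows were pooled instead, so that deep windows weighed more, this difference was 0.195 points. Depth itself was similar, with ratios of 0.892 to 1.28 between DSE-treated and saline mice over the 20 windows. In OVA vs. saline, 9 neighbouring genes, among them Gsdma2, Med24 and Erbb2, had 9 hyper and 1 hypo methylated of 135 windows tested. The counts were 2 and 1 of 137 in DSE vs. OVA, and 9 and 0 of 135 in DSE vs. saline. As shares these were 6.67% and 0.741%, 1.46% and 0.73%, and 6.67% and 0%. Partners of Ormdl3 in sphingolipid synthesis were Ormdl1, Ormdl2 and the subunits of serine palmitoyltransferase. They had 2 and 0 of 72, 1 and 2 of 72, and 3 and 1 of 74 in the same order. Those shares were 2.78% and 0%, 1.39% and 2.78%, and 4.05% and 1.35%. Over all windows the shares were 4.75% and 2.56%, 0.898% and 0.725%, and 4.95% and 3.07%.

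**Figure D2:**
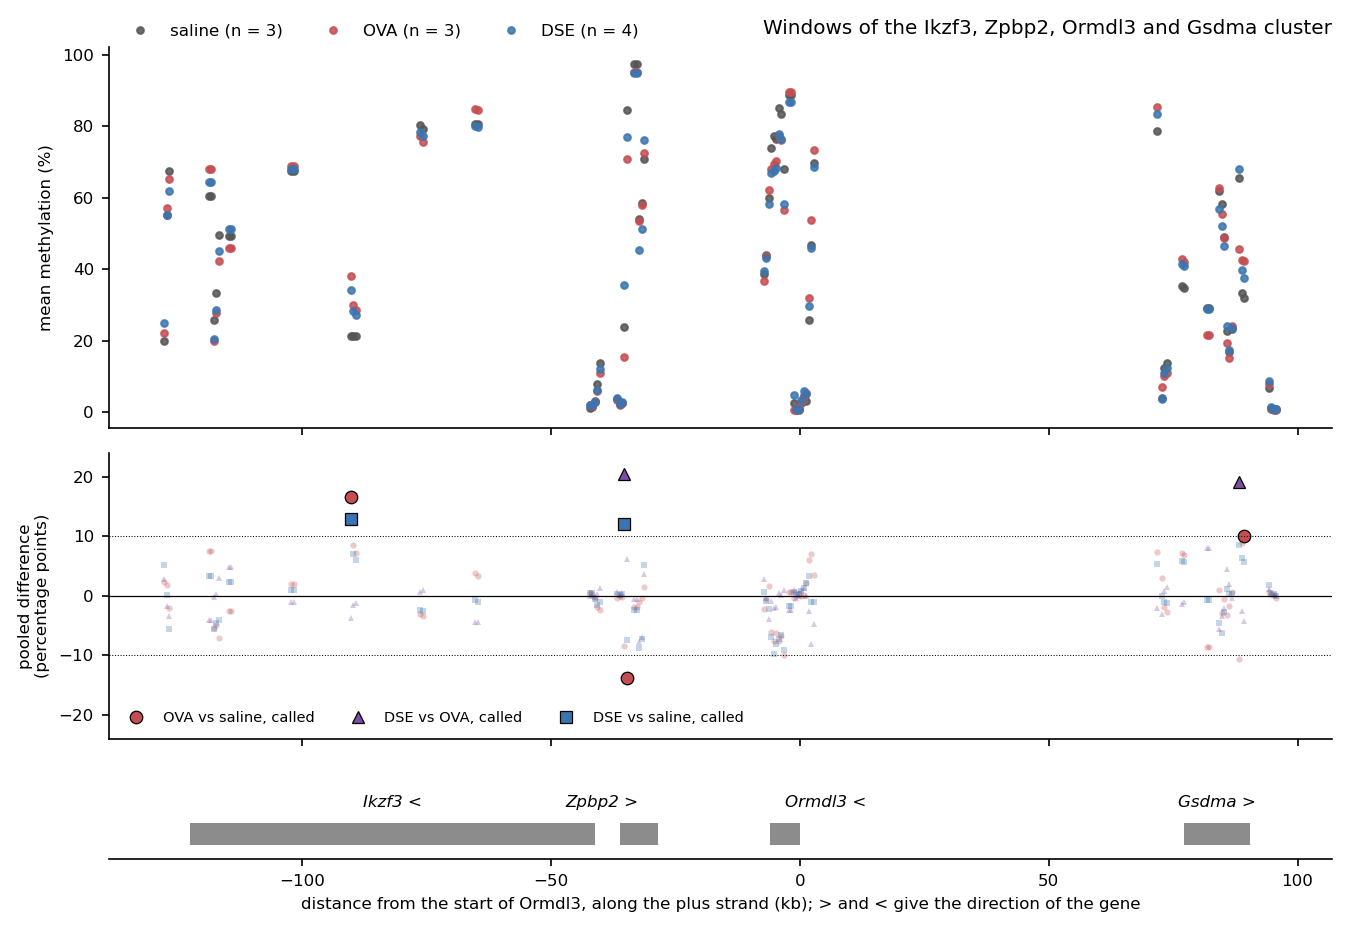
Mean methylation (%) of each group and pooled difference (percentage points) of the windows at Ikzf3, Zpbp2, Ormdl3 and Gsdma, against the distance from the Ormdl3 start (kb), with the genes as grey bars. Outlined symbols are called windows and dotted lines mark 10 points; methylation falls to under 5% at the starts of Ormdl3, Zpbp2 and Ikzf3, and the highest symbol is the DSE vs. OVA difference of 20.5 points beside the Zpbp2 start.

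Zpbp2 (chr11:98551097-98558665, plus strand, 7 exons) held the greatest pooled difference between DSE-treated and OVA-induced mice. As a difference of group means it was 20.3 points, less than the 22.4 points of the Gsdma window chr11:98675001-98676000 over exon 11. In chr11:98551501-98552500, over the end of exon 1, intron 1 and exon 2, saline mice had 23.8, 25.5 and 22.5%. OVA-induced mice had 15.5, 15.2 and 15.5%, and DSE-treated mice had 39, 37.2, 38.3 and 28.4%. The groups did not overlap, and OVA-induced mice were lowest. The pooled difference was 20.5 points in DSE vs. OVA (likelihood ratio test, adjusted p = 6.03e-78, and limma adjusted p = 0.0144) and 12 points in DSE vs. saline (limma adjusted p = 0.0299). DSE-treated mice had 1241 to 1516 calls in this window, OVA-induced mice 736 to 890 and saline mice 804 to 920.

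Neither part of the window differed as much between DSE-treated and OVA-induced mice. The next window, chr11:98552001-98553000, is the last of its run, so that the calls it does not hold come from chr11:98551501-98552000, provided that its far end adds few calls. These remaining calls were 8.43, 8.89 and 7.03% methylated in saline mice, 8.58, 7.52 and 5.99% in OVA-induced mice, and 9.25, 10.3, 6.98 and 5.21% in DSE-treated mice. The groups overlapped, and DSE vs. OVA differed by 0.57 ± 1.36 points (SE; exact permutation test, two-sided, p = 0.743). In the next window DSE vs. OVA differed by 6.11 ± 2.92 points (exact permutation test, p = 0.114). The groups did not overlap in the share of calls that the next window held. It had 12.6 ± 1.53% (SD, n = 3) of the window's number of calls in OVA-induced mice, 20.7 ± 1.05% in saline mice (n = 3) and 40.3 ± 5.96% in DSE-treated mice (n = 4). The sequence given above from the start of this window thus lies in the part with low methylation in all groups. The split was chosen after seeing the data.

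**Figure D3:**
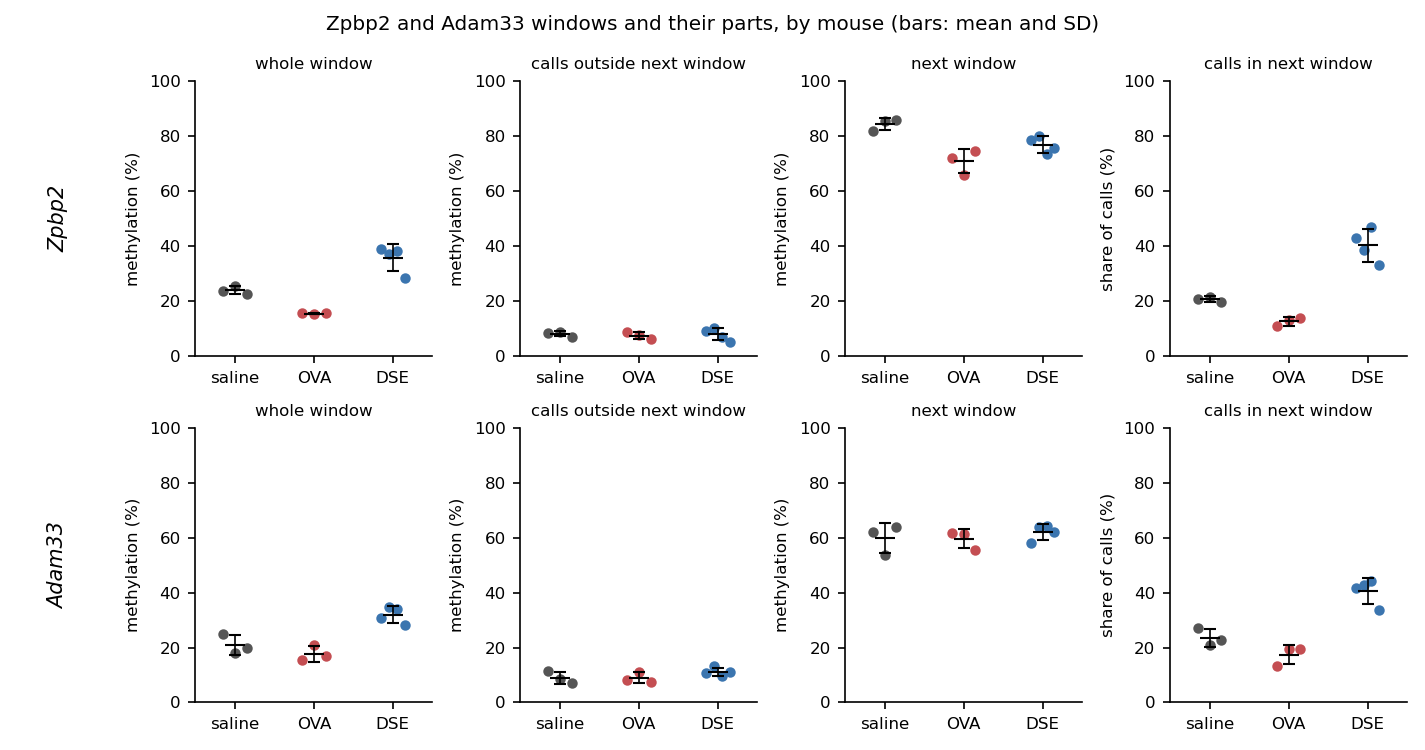
Methylation (%) by mouse of the Zpbp2 and Adam33 windows called in DSE vs. OVA, of their calls outside the next window and of the next window, and the calls in the next window as a share (%) of those in the whole window. Points are mice, and bars are the mean and SD; the whole windows are highest in DSE-treated mice, the calls outside the next window are 5.21 to 13.2% methylated in all mice, and the share of calls is highest in DSE-treated mice.

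The next Zpbp2 window, chr11:98552001-98553000, over intron 1, exon 2 and intron 2, was hypo methylated in OVA vs. saline. Saline mice had 82.1, 85.6 and 86.1%, OVA-induced mice 72.2, 66 and 74.5%, and DSE-treated mice 78.5, 80.3, 73.7 and 75.6%. All OVA-exposed mice were below the saline mice, while OVA-induced and DSE-treated mice overlapped. It differed by -13.8 points in OVA vs. saline (limma adjusted p = 0.0292) and -7.5 points in DSE vs. saline (limma adjusted p = 0.0674). Depth was lowest in OVA-induced mice, with 97 to 106 calls against 174 to 184 in saline and 426 to 651 in DSE-treated mice, and its part in the result was not tested. The Zpbp2 start-site window chr11:98550501-98551500 was at 2.21 ± 0.481% in saline mice, 2.14 ± 0.393% in OVA-induced mice and 2.33 ± 0.359% in DSE-treated mice (SD). Its limma adjusted p-values were 0.933, 0.913 and 0.84 in the order OVA vs. saline, DSE vs. OVA and DSE vs. saline. Over exons 4 and 5, DSE-treated mice were below all others in the overlapping windows starting at 98554501 and 98555001. DSE vs. OVA differed there by -7.84 and -6.85 points (limma adjusted p = 0.357 and 0.424). DSE vs. saline differed by -8.79 and -7.27 points (limma adjusted p = 0.0921 and 0.131). These 2 windows were not called and were singled out after their values were seen.

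Ikzf3 (chr11:98464610-98546031, minus strand, 8 exons) had 1 called window, chr11:98496501-98497500 in intron 3. Saline mice had 21.5, 24.5 and 17.9%. OVA-induced mice had 25.9, 46.4 and 42%, and DSE-treated mice had 44.4, 25, 32.7 and 34.7%. All OVA-exposed mice were above the saline mice, but they ranged widely. The groups differed by 16.6 points in OVA vs. saline (limma adjusted p = 0.116) and 12.9 points in DSE vs. saline (limma adjusted p = 0.143), so that neither passed the test that uses the spread between mice. Without DSE replicate 1 the latter was 9.31 points and not called. With 95 to 151 calls per mouse, the 95% Wilson interval of a single mouse reached 9.41 points either way, which covers counting error only. The start-site window chr11:98545501-98546500 was at 3.23 ± 0.763% in saline mice, 2.95 ± 0.721% in OVA-induced mice and 2.79 ± 0.52% in DSE-treated mice (SD). Of 132 windows of the other Ikaros family genes tested in OVA vs. saline, 3 were hyper and 27 hypo methylated, the latter at Ikzf1 and Ikzf2. In DSE vs. saline these counts were 3 and 28, and in DSE vs. OVA 1 and 1. The shares were 2.27% and 20.5% (OVA vs. saline), 2.26% and 21.1% (DSE vs. saline) and 0.746% and 0.746% (DSE vs. OVA). Over all windows they were 4.75% and 2.56%, 4.95% and 3.07%, and 0.898% and 0.725% in the same order. Ikzf3 had 0 hypo methylated of 27 windows in each comparison, too few windows to tell this from the 2.56% and 3.07% of all windows in the comparisons with saline.

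Gsdma (chr11:98664337-98677708, plus strand, 12 exons) was partly methylated at its start. The window chr11:98664001-98665000 had 39.2, 31.4 and 33.9% in saline mice, 39.1, 40.9 and 46.1% in OVA-induced mice and 39.3, 39.8, 43.4 and 40.9% in DSE-treated mice. The highest saline mouse overlapped the OVA-induced mice, and the difference of 6.78 points in OVA vs. saline did not pass limma (adjusted p = 0.182). Over exon 12 and intron 11, chr11:98676001-98677000 had 30.7, 29 and 36.1% in saline and 42.5, 43.7 and 40.7% in OVA-induced mice. DSE-treated mice, with 32.7, 37.9, 38.8 and 41.5%, lay between and overlapped both groups. OVA vs. saline differed by 10 points (likelihood ratio test, adjusted p = 8.84e-09; limma adjusted p = 0.0818). The call was lost without saline replicate 1 or 2 or OVA replicate 1 or 2.

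In chr11:98675001-98676000 of Gsdma, over exon 11, OVA-induced mice had 40.5, 55.6 and 41.2%, and DSE-treated mice had 56.1, 77.8, 87 and 51.6%. The groups overlapped, and DSE vs. OVA differed by 19.2 points (likelihood ratio test, adjusted p = 0.00462; limma adjusted p = 0.433). With 18 to 64 calls per mouse, this was the thinnest window called, and single values carried a Wilson interval of up to 16.7 points either way. The call was lost without OVA replicate 1 or 3 or DSE replicate 2 or 3. The other gasdermins had 1 hyper and 2 hypo methylated windows of 71 in OVA vs. saline. The counts were 2 and 0 of 73 in DSE vs. OVA, and 1 and 3 of 71 in DSE vs. saline. As shares these were 1.41% and 2.82%, 2.74% and 0%, and 1.41% and 4.23%. Over all windows the shares were 4.75% and 2.56%, 0.898% and 0.725%, and 4.95% and 3.07%.

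Smad3 (chr9:63646766-63757994, minus strand, 9 exons) had 68 of the 217 windows and 5 of the 8 hypo methylated in OVA vs. saline and 7 of the 8 in DSE vs. saline, all in intron 1. These were 7.35% and 10.3% of its windows, where 2.56% and 3.07% of all windows were. Since neighbours overlap, they formed 3 and 4 separate regions. The window chr9:63737501-63738500 holds the Smad3 sequence above. It was singled out after its values were seen, among called windows that passed limma, and it also overlaps the gene Gm51710. There saline mice had 59.8, 62.1 and 54.9%. OVA-induced mice had 42.2, 45.8 and 38.4%, and DSE-treated mice had 47, 39.4, 39.1 and 41%. All 7 OVA-exposed mice were below all 3 saline mice. The pooled difference was -15.7 points in OVA vs. saline (limma adjusted p = 0.0336) and -16.4 points in DSE vs. saline (limma adjusted p = 0.0168). DSE vs. OVA differed by -0.66 points (limma adjusted p = 0.981). Both calls were kept whichever mouse was left out.

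A second intron 1 site of Smad3, chr9:63721001-63722000, was singled out in the same way and followed the same order. Saline mice had 38.6, 44.6 and 40.1%, OVA-induced mice 29.8, 32.1 and 26.9%, and DSE-treated mice 26.4, 27.2, 29.4 and 28.5%. Again no OVA-exposed mouse reached the saline mice. Pooled, the differences were -11.5 points in OVA vs. saline (limma adjusted p = 0.0415) and -13.2 points in DSE vs. saline (limma adjusted p = 0.0161). Without saline replicate 2 the first of these was -9.83 points and no longer called. Its overlapping neighbour starting at 63721501 was called in DSE vs. saline at -12.7 points (limma adjusted p = 0.0216).

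Farther into intron 1, chr9:63684501-63685500 had 97.6, 89.7 and 86.4% in saline mice, 72.4, 73.2 and 78.5% in OVA-induced mice and 76, 74.5, 86 and 72.3% in DSE-treated mice. It differed by -16.4 points in OVA vs. saline and -14.7 points in DSE vs. saline, with limma adjusted p-values of 0.0758 and 0.0674. The greatest pooled difference of DSE vs. saline, -17.8 points in chr9:63739001-63740000, rested on 21 to 79 calls per mouse. There saline mice had 48.9, 33.3 and 35.2% and DSE-treated mice 22.5, 15.2, 22.9 and 36.8%, which overlapped (limma adjusted p = 0.376). The call was lost without saline replicate 1 or DSE replicate 2. In the other direction, chr9:63716501-63717500 had 33.2, 32.3 and 27.5% in saline mice, 33.8, 41.5 and 39.3% in OVA-induced mice and 35.2, 43.3, 40.7 and 46.2% in DSE-treated mice. It was the 1 hyper methylated window of the gene, at 10.9 points in DSE vs. saline (limma adjusted p = 0.0769), and the call was lost without saline replicate 3 or DSE replicate 4.

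**Figure D4:**
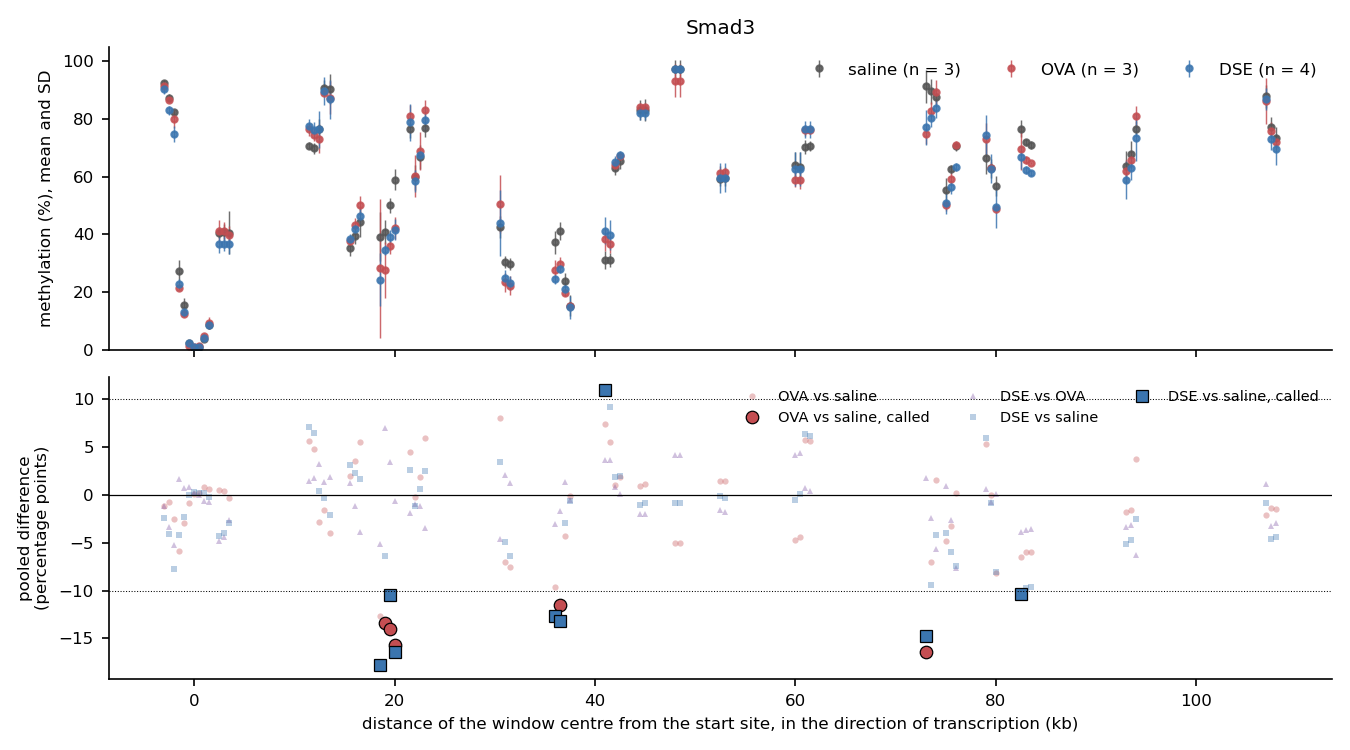
Methylation (%; mean and SD over mice) of the 68 Smad3 windows by group, and their pooled differences (percentage points) in the 3 comparisons, against the distance of the window centre from the start site (kb). Outlined symbols are called windows and dotted lines mark 10 points; the called windows below 0 lie between 18.5 and 82.5 kb into the gene.

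Called Smad3 windows had similar depth in the groups, with ratios in the share of calls of 0.832 to 1.1 in OVA vs. saline and 0.919 to 1.19 in DSE vs. saline. The mean over the 68 windows was 57.3 ± 0.194% in saline mice (SD, n = 3), 55.7 ± 0.616% in OVA-induced mice (n = 3) and 54.9 ± 0.427% in DSE-treated mice (n = 4). It differed by -1.63 ± 0.373 points in OVA vs. saline (SE; exact two-sided permutation p = 0.1, and 3 mice against 3 allow none smaller) and by -2.45 ± 0.241 points in DSE vs. saline (exact permutation test, p = 0.0571). All 7 OVA-exposed mice were below the saline mice. Pooled calls gave -1.11 points in DSE vs. saline. The start-site window of Smad3, chr9:63757501-63758500, stayed near 1% in every mouse, from 0.367 to 1.19%. Other genes of TGF-beta and Smad signalling had 41 hyper and 8 hypo methylated windows of 368 in OVA vs. saline. The counts were 2 and 4 of 367 in DSE vs. OVA, and 43 and 14 of 368 in DSE vs. saline. As shares these were 11.1% and 2.17%, 0.545% and 1.09%, and 11.7% and 3.8%. Over all windows the shares were 4.75% and 2.56%, 0.898% and 0.725%, and 4.95% and 3.07%.

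Adam33 (chr2:131050819-131063814, minus strand, 20 exons) had 1 called window, over its start site, chr2:131063501-131064500. Saline mice had 25.1, 17.9 and 20%, OVA-induced mice 15.3, 20.9 and 16.8%, and DSE-treated mice 30.6, 34.9, 34 and 28.1%. The DSE-treated mice were above all others. Pooled, the difference was 14 points in DSE vs. OVA (likelihood ratio test, adjusted p = 1.04e-45; limma adjusted p = 0.0564) and 10.5 points in DSE vs. saline (limma adjusted p = 0.0417). The second of these calls was lost without saline replicate 2 or 3 or DSE replicate 2 or 3, at 9.36 points or more. As at Zpbp2, neither part of the window differed as much. The calls outside the next window, which is the last of its run, were 8.93 ± 2.19% methylated in saline mice, 8.91 ± 1.99% in OVA-induced mice and 11.2 ± 1.47% in DSE-treated mice (SD), and DSE vs. OVA differed by 2.32 ± 1.36 points (SE; exact permutation test, p = 0.229).

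The next window, chr2:131064001-131065000, lies upstream of the Adam33 start and was at 59.9 ± 5.4%, 59.6 ± 3.42% and 62.1 ± 2.8% in the same order, with a DSE vs. OVA difference of 2.49 ± 2.42 points (exact permutation test, p = 0.343). It held 23.6 ± 3.27%, 17.4 ± 3.56% and 40.6 ± 4.86% of the calls. Total depth of the called window was alike, at a ratio of 1.09 between DSE-treated and OVA-induced mice. The mean over all Adam33 windows was 36.0 ± 0.773% in saline mice (n = 3), 38.0 ± 0.829% in OVA-induced mice (n = 3) and 38.2 ± 1.61% in DSE-treated mice (n = 4), and OVA vs. saline differed by 1.99 ± 0.654 points (SE; exact permutation test, p = 0.1). Other Adam metalloproteinases had 13 hyper and 3 hypo methylated windows of 176 in OVA vs. saline. The counts were 2 and 3 of 175 in DSE vs. OVA, and 14 and 3 of 177 in DSE vs. saline. As shares these were 7.39% and 1.7%, 1.14% and 1.71%, and 7.91% and 1.69%. Over all windows the shares were 4.75% and 2.56%, 0.898% and 0.725%, and 4.95% and 3.07%.

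Dennd1b (chr1:138963709-139176043, plus strand, 22 exons) was almost unmethylated at its start and had 4 called windows in introns. The start-site window chr1:138963001-138964000 ranged from 0.427 to 1.8% over the 10 mice. In chr1:139066501-139067500 of intron 9, saline mice had 94.9, 82.1 and 89%, OVA-induced mice 72.3, 81.8 and 81.7%, and DSE-treated mice 80.9, 81.5, 74.8 and 71.4%. All OVA-exposed mice were below the saline mice, the closest of them by a narrow margin. The pooled difference was -10.3 points in OVA vs. saline (limma adjusted p = 0.155) and -11.4 points in DSE vs. saline (limma adjusted p = 0.0884). These calls were lost without saline replicate 1, and also without OVA replicate 1 in OVA vs. saline and without DSE replicate 4 in DSE vs. saline. Its overlapping neighbour, starting at 139067001, was called at -10.5 points in OVA vs. saline (limma adjusted p = 0.0766), and 4 of the 6 left-out mice ended that call.

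In chr1:139156001-139157000 of Dennd1b, in intron 19, saline mice had 28.2, 35.6 and 37.2%, OVA-induced mice 20.2, 40.7 and 17.7%, and DSE-treated mice 42.5, 46.7, 43.4 and 41.5%. DSE-treated mice were highest, and OVA-induced mice were widely spread. DSE vs. OVA differed by 15.4 points (likelihood ratio test, adjusted p = 1.17e-08; limma adjusted p = 0.25), or 9.63 points without OVA replicate 3, which ended the call. OVA-induced mice had 99 to 189 calls there and DSE-treated mice 529 to 1061, a ratio of 4.99 in the share of calls. The overlapping window starting at 139156501, with 99 to 287 calls per mouse, did not show this difference. OVA-induced mice had 20.2, 22.4 and 17.5% in it, and DSE-treated mice 16.7, 22.3, 13 and 19.9%. Its pooled difference was -2.12 points in DSE vs. OVA (limma adjusted p = 0.896). The window starting at 139067501 was called in DSE vs. OVA at 13.4 points (limma adjusted p = 0.427) with a ratio of 4.6. Without OVA replicate 3, whose value of 47.8% was lowest, that difference was 3.93 points. The part of depth in these differences was not tested.

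Npsr1 (chr9:24097912-24317590, plus strand, 10 exons) had called windows in DSE vs. saline alone, and no window over its start site was measured. The window chr9:24285501-24286500 of intron 4 was singled out after its values were seen, among called windows that passed limma. There saline mice had 56, 48.9 and 55.3%, OVA-induced mice 53, 59 and 56.9%, and DSE-treated mice 64.4, 66.1, 64.9 and 63.1%. DSE-treated mice were above all others, and saline and OVA-induced mice overlapped. Pooled calls differed by 11.3 points in DSE vs. saline (limma adjusted p = 0.0319) and 8.46 points in DSE vs. OVA (limma adjusted p = 0.258). The overlapping window starting at 24286001, which reaches exon 5, differed by 11.1 points in DSE vs. saline (limma adjusted p = 0.0287). Both calls were lost without saline replicate 2, at 8.97 and 8.92 points. The Npsr1 sequence above, with 5 CpGs, is shared by both windows.

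Farther upstream in intron 4 of Npsr1, chr9:24283001-24284000 had 46, 53.1 and 41.1% in saline mice, 52.3, 52.1 and 61.9% in OVA-induced mice and 68.2, 55, 70.5 and 52.7% in DSE-treated mice. It differed by 16.4 points in DSE vs. saline, but the groups overlapped (limma adjusted p = 0.11). In the overlapping window starting at 24282501, saline and OVA-induced mice had the same values as here. DSE-treated mice had 56.3, 51.7, 59.5 and 44.6% in it. There DSE vs. saline differed by 6.45 points (limma adjusted p = 0.415). Depth at the 3 called windows was 1.53 to 1.81 times higher in DSE-treated than in saline mice, and its part in the result was not tested. Genes that act with Dennd1b or Npsr1, which were Rab35, Dennd1a and Dennd1c, had 8 hyper and 5 hypo methylated windows of 100 in OVA vs. saline. The counts were 0 and 0 of 100 in DSE vs. OVA, and 10 and 4 of 101 in DSE vs. saline. As shares these were 8% and 5%, 0% and 0%, and 9.9% and 3.96%. Over all windows the shares were 4.75% and 2.56%, 0.898% and 0.725%, and 4.95% and 3.07%. The Nps gene, which encodes neuropeptide S, had no window.

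Wdr36 (chr18:32837188-32866955, plus strand, 23 exons) was measured at its start alone and had no called window. In chr18:32836501-32837500, over the start site, saline mice had 6.13, 8.18 and 8.16%, OVA-induced mice 8.08, 7.56 and 8.37%, and DSE-treated mice 12.1, 11, 10.8 and 10.3%. The DSE-treated mice were above all others. The difference was 3.62 points in DSE vs. saline (limma adjusted p = 0.039) and 3.1 points in DSE vs. OVA (limma adjusted p = 0.247). The overlapping upstream window chr18:32836001-32837000 was highly methylated, at 87.3 ± 4.09% in saline and 86.1 ± 3.17% in DSE-treated mice (SD), and there the share of calls was 1.26 times higher in DSE-treated than in saline mice. At the start-site window this ratio was 0.864. The upstream window held 6.85 ± 0.973% (SD, n = 3) of the start-site window's number of calls in saline mice and 10.0 ± 0.602% (n = 4) in DSE-treated mice. Split as at Zpbp2, the calls of the start-site window outside it were 1.6 ± 0.237% methylated in saline mice, 2.07 ± 0.3% in OVA-induced mice and 2.71 ± 0.816% in DSE-treated mice (SD), and DSE vs. saline differed by 1.11 ± 0.43 points (SE; exact permutation test, p = 0.0571). The gene 4930455D15Rik overlaps all of these windows.

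**Figure D5:**
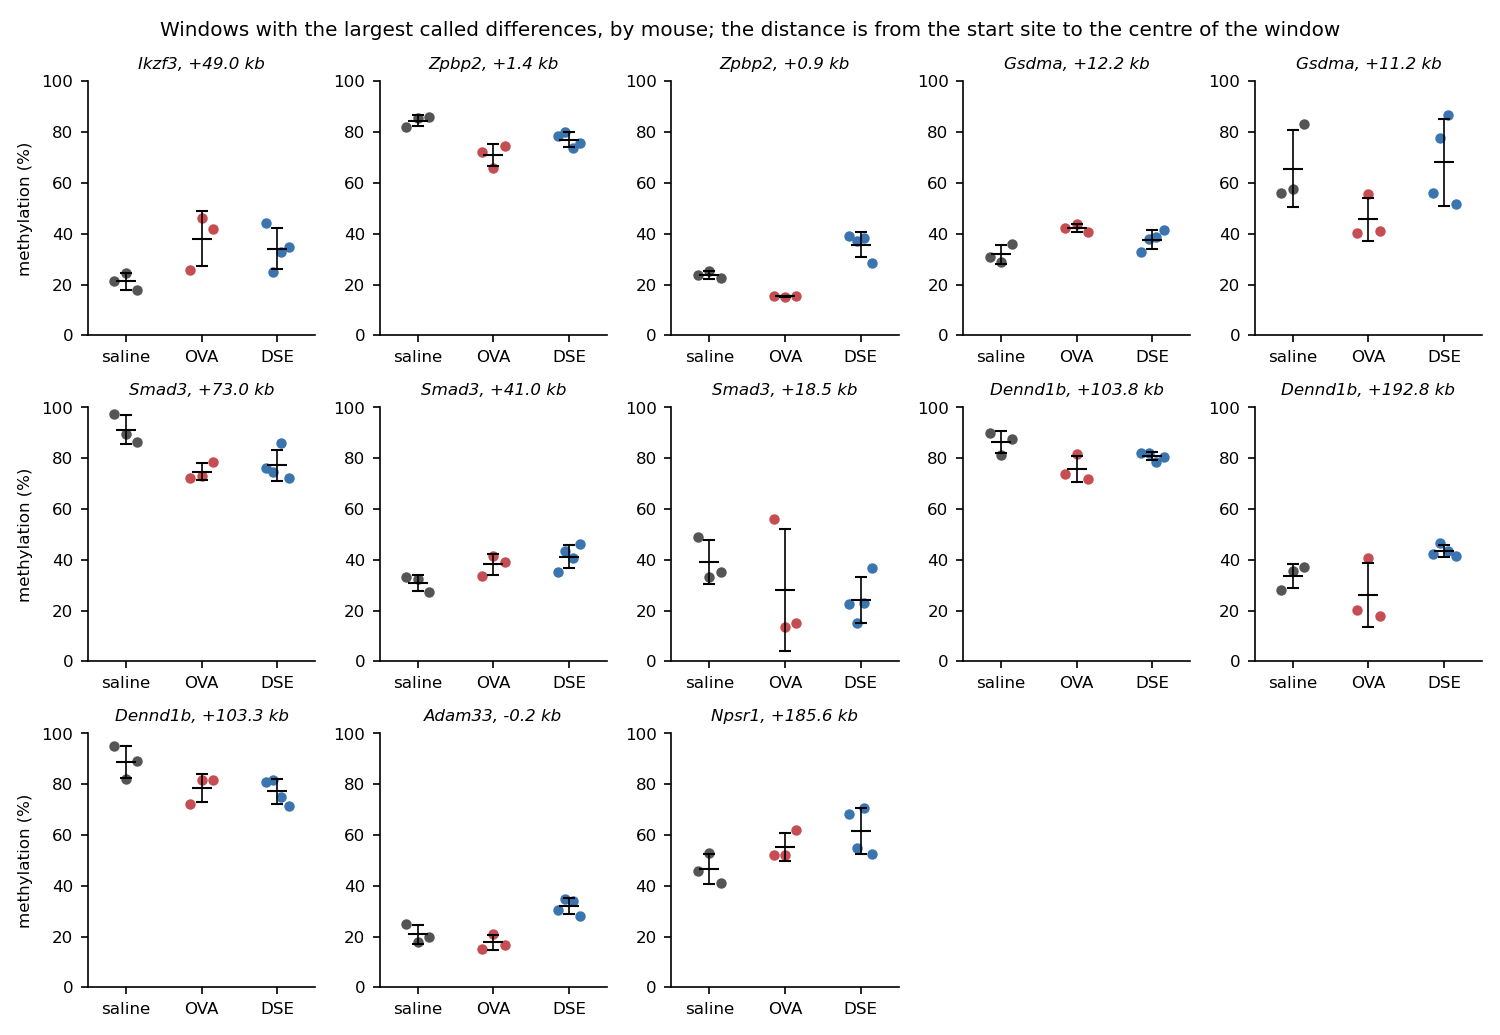
Methylation (%) by mouse of the window with the largest called difference of each gene, comparison and direction, with the distance of its centre from the start site (kb). Points are mice, and bars are the mean and SD; OVA-exposed mice lie below the saline mice in Smad3 at 73.0 kb, and DSE-treated mice lie above both other groups in Zpbp2 at 0.9 kb and Adam33 at -0.2 kb.

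Averaged over all of their windows, the genes differed little between groups. For Zpbp2 the mean was 40.0 ± 0.847% in saline mice (SD, n = 3), 37.6 ± 0.651% in OVA-induced mice (n = 3) and 38.9 ± 0.919% in DSE-treated mice (n = 4), and OVA vs. saline differed by -2.45 ± 0.617 points (SE; exact permutation test, p = 0.1). For Npsr1 OVA vs. saline differed by 2.29 ± 0.926 points (SE; exact permutation test, p = 0.1). Means of Ikzf3, Gsdma, Wdr36 and Dennd1b differed by less than 1 point in every comparison, with exact permutation p-values of 0.286 to 0.971.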

How the data were processed

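The table holds raw counts as deposited by the authors. Each row is a 1000-bp window, with 500 bp between starts, and gives per mouse the total, methylated and unmethylated CpG calls, with no fewer than 10 in any mouse. The submitters' processing notes name cutadapt 1.10, Bismark 0.19.0, methylKit 1.0.0 and the build mm10; the methods of the study give other versions. Capture and PCR without molecular identifiers make calls non-independent, so that Wilson intervals (95%) cover counting error only.

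Here, windows with at least 20 calls in at least 2 mice of each group were tested with a logistic model of the calls and a likelihood ratio test, over the whole table with Benjamini-Hochberg adjustment and only the mice compared. Methylation is 100 times methylated calls over calls. limma 3.58.1 (R 4.3.3) was fitted to M-values, log2((methylated + 1)/(unmethylated + 1)), of all 10 mice. Per-gene means used exact permutation tests, two-sided, over mice, with all regroupings of the mice enumerated. The p-values of the likelihood ratio test came from scipy 1.17.1. Replicates were separate mice. The mean chi-square of 2.62 to 3.72 between mice of a group showed no library present in duplicate. Scripts were tested on simulated data. The depth ratio is the ratio of the groups' mean shares of calls, each share being the calls of a mouse in the window over all its calls.

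Named windows were the start-site window of each gene, its largest called difference in each comparison and direction and, for genes without calls, the deepest and the most variable window; others are said to be singled out or are neighbours of these and were chosen after seeing values. Members and gene lists were chosen with earlier results of these data known. Alternatives covered minimum calls, mice needed, flanks, thresholds, tests, overlap, weighting, a replicate block and each mouse left out. RNA-seq was not analysed here.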

Additional observations from a re-analysis of the deposited data

Results flagged for a closer look

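Of 32 values of the DSE-treated mice examined for a mouse far from the other 3, 2 stood out, and chance flags about 1 in 20 such groups. The mean over the Ormdl3 windows was 48.6% in DSE replicate 2, against 46.5, 46.1 and 46.4% in the other DSE-treated mice. In the Zpbp2 window chr11:98551501-98552500, DSE replicate 4 had 28.4%, against 37.2 to 39% in the other DSE-treated mice. In the same mouse the next window held 33% of the window's number of calls, the lowest share of the DSE-treated mice.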

How the results depend on the processing

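Counts of called windows, hyper and hypo methylated in turn, were 2 and 8 (OVA vs. saline), 5 and 0 (DSE vs. OVA) and 7 and 8 (DSE vs. saline). An overdispersion-scaled F test and limma at an adjusted p under 0.01 called 0 in each; at 20 percentage points 0 were called except 1 hyper methylated in DSE vs. OVA. limma at an adjusted p under 0.05 and 10 percentage points called 0 and 4, 1 and 0, and 4 and 4, all of them windows already called. Without overlapping windows the counts were 1 and 4, 2 and 0, and 2 and 4, and a minimum of 50 calls left 3 in DSE vs. OVA. Leaving out 1 mouse gave 1 to 5 and 7 to 11 in OVA vs. saline, 2 to 7 and 0 in DSE vs. OVA, and 6 to 9 and 5 to 11 in DSE vs. saline. The hyper methylated count of OVA vs. saline was 1 without saline replicate 1, 5 without saline replicate 3 or OVA replicate 1, and 4 without OVA replicate 3. That of DSE vs. OVA was 2 without OVA replicate 3, and the hypo methylated count of DSE vs. saline was 5 without saline replicate 1. Of the called windows, 5 of 10, 2 of 5 and 6 of 15 were called whichever mouse was left out. Limiting the counts to windows with the depth of the groups within 1.5 times, chosen after seeing the data, gave 2 in DSE vs. OVA and 4 in DSE vs. saline, hyper methylated. From the calls outside the next window, also chosen after seeing the data, the Zpbp2 difference of 12 points in DSE vs. saline was -0.183 and that of 20.5 in DSE vs. OVA was 0.57, while the Adam33 differences of 14 and 10.5 points were 2.32 and 2.3. Per-gene means moved by more than the spread between mice in 17 of 27 values when calls were pooled over the windows and in 4 of 27 without overlapping windows. The cause of the other shifts was not tested. The replicate numbers do not pair the mice: correlations of same-numbered mice ran from -0.0273 to 0.0785 over 9 pairs, none over 0.1, and not every mouse correlated best with its own number. A replicate block changed no count, at 2 and 8, 5 and 0, and 7 and 8. With 3 or 4 mice a group, exact tests cannot go below 0.1 or 0.0571.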

Other observations

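The orthologs of 23 other asthma risk genes, among them Il33, Il1rl1, Rora, Bach2 and Pde4d, had 878 windows. In OVA vs. saline 33 of 872 were hyper and 23 hypo methylated, or 3.78% and 2.64% against 4.75% and 2.56% of all windows. In DSE vs. OVA these counts were 6 and 6 of 872, and in DSE vs. saline 44 and 31 of 877. The former were 0.688% and 0.688%, against 0.898% and 0.725% of all windows. The latter were 5.02% and 3.53%, against 4.95% and 3.07%. Hypo methylated windows in OVA vs. saline lay in Il6ra, Rora, Tlr6, Bach2, Cdhr3, Clec16a, Dexi and Pde4d, 8 of the 23 genes, and hyper methylated ones in 7 genes, including Stat6 and Il2rb. Their mean methylation was 51.9 ± 0.257% in saline mice (SD, n = 3), 52.8 ± 0.359% in OVA-induced mice (n = 3) and 52.7 ± 0.437% in DSE-treated mice (n = 4).

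Some cell type markers had no start-site window. These were Cd3e and Cd2 for T cells, Ms4a1 and Cd22 for B cells, and Marco and Mrc1 for macrophages. The others were S100a8, S100a9 and Mpo for neutrophils, Scgb1a1 for lung epithelium, and Cdh5 and Pecam1 for endothelium. Among the start-site windows measured, T cell genes averaged 71.9 ± 0.182% in saline mice, 68.6 ± 0.88% in OVA-induced mice and 69.9 ± 1.49% in DSE-treated mice (SD). For B cell genes the means were 56.9, 57.5 and 58.8% in the same order. For macrophage genes they were 62.3, 63 and 59.4%. For neutrophil genes, with 2 windows of 1 gene, they were 53.1, 47.6 and 54%. Lung epithelial genes had 25.2, 25 and 25.7%.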
